A study of Caenorhabditis elegans with 15 samples.

Results

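The genes described here are 10 components of P granules, the germ granules of Caenorhabditis elegans: pgl-1, pgl-3, glh-1, glh-2, glh-4, deps-1, meg-1, meg-2, meg-3 and meg-4. They were picked by symbol from the 20392 genes of a count table, and all 10 were among the 15471 genes with enough counts to be tested. The study asked what MET-2, a putative histone H3 lysine 9 methyltransferase and the worm relative of SETDB1, does beyond its catalysis and what acute heat does to that function. Total RNA depleted of ribosomal RNA was sequenced from early embryos, collected by bleaching before they reached the bean stage. The 15 libraries form 5 groups of 3 biological replicates. At 20 °C these were the wild type N2 (WT), a strain with the met-2 deletion allele n4256 (met-2Δ) and a strain with the met-2 allele gw1660, a point mutation of the catalytic site made in the endogenous gene (met-2-CD). The other groups were WT and met-2Δ from cultures exposed for 1 h to 37 °C (heat stress, HS) before RNA was extracted. No heated met-2-CD library was analysed here.

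P granules are condensates of RNA and protein without a membrane, and in the early embryo they are inherited by the germ line blastomeres. PGL proteins are RNA-binding scaffolds of the granule, GLH proteins are DEAD-box helicases related to Vasa, DEPS-1 promotes granule assembly, and MEG proteins are intrinsically disordered proteins that act in the embryo, where MEG-3 and MEG-4 coat the PGL core and govern its segregation. PGL protein that is left in somatic blastomeres is removed by autophagy through the adaptors SEPA-1 and EPG-2. Much of the mRNA for these proteins in early embryos was loaded by the mother.

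Libraries held between 16.15 and 58.84 M counts of uniquely aligned reads. Levels are given as CPM, which are counts per M counts of the library after correction by the TMM factors of edgeR, for the libraries a, b and c of each group, and errors of group means are the SD (n = 3). Transcripts of met-2 were at 313 ± 6.27 CPM in WT and 33.6 ± 0.919 CPM in met-2Δ at 20 °C (log2FC −3.22 ± 0.059, FDR 2.28e-15), so the deletion libraries went with their label. After HS met-2 was at 276 ± 9.87 CPM in WT and 60.4 ± 2.03 CPM in met-2Δ (log2FC −2.19 ± 0.056, FDR 9.41e-13). In met-2-CD it was at 295 ± 14.0 CPM (log2FC −0.08 ± 0.053, FDR 0.175), so transcript level does not check the label of the point mutant. The WT libraries at 20 °C stood apart from the other 12: 28 genes had at most 3 counts in each library on one side and at least 20 in each on the other, against 0 such genes for any other group, and none of the 28 was a P granule gene. Every comparison with WT at 20 °C rests on these libraries, so both mutants are also compared with each other, and the heat response of WT is also given with met-2-CD as its baseline. Transcripts of 10 maternal genes summed to between 2636 and 4341 CPM and those of 9 early zygotic genes to between 252 and 1117 CPM, while 8 sperm genes, of which at most 2 were at 0 in a group, summed to at most 9.99 CPM and 4 yolk genes of the adult intestine to at most 14.4 CPM.

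P granule transcripts were well covered, with between 381 (glh-4) and 9324 (pgl-1) counts in a library. Divided by the exon length of each gene, in CPM per kb, deps-1 (80.4 ± 8.05) and meg-1 (76.2 ± 10.4) were highest in WT at 20 °C, pgl-1 (47.3 ± 5.65) and meg-3 (40.8 ± 5.17) came next, and the other 6 genes lay between 10.9 ± 1.57 (meg-2) and 20.7 ± 2.56 (meg-4). Only the steps from meg-1 to pgl-1 and from meg-3 to meg-4 separated neighbours whose libraries did not overlap. In met-2Δ at 20 °C pgl-1 moved to the top of this order, at 111 ± 5.69 CPM per kb, though its libraries overlapped those of deps-1 (108 ± 3.28). At 37 °C meg-1 led in both genotypes, at 106 ± 6.88 CPM per kb in WT and 129 ± 7.15 in met-2Δ, and glh-4 was last, at 5.47 ± 0.154 and 5.88 ± 0.819 CPM per kb. Summed over the 10 genes, in CPM, the libraries ran from 749 to 944 in WT, 953 to 1180.2 for met-2-CD and 1264 to 1386 for met-2Δ at 20 °C, and from 981 to 1100.0 in WT and 1189 to 1230.2 in met-2Δ at 37 °C. The 3 groups at 20 °C therefore did not overlap in the sum, nor did WT and met-2Δ at 37 °C.

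**Figure D1:**
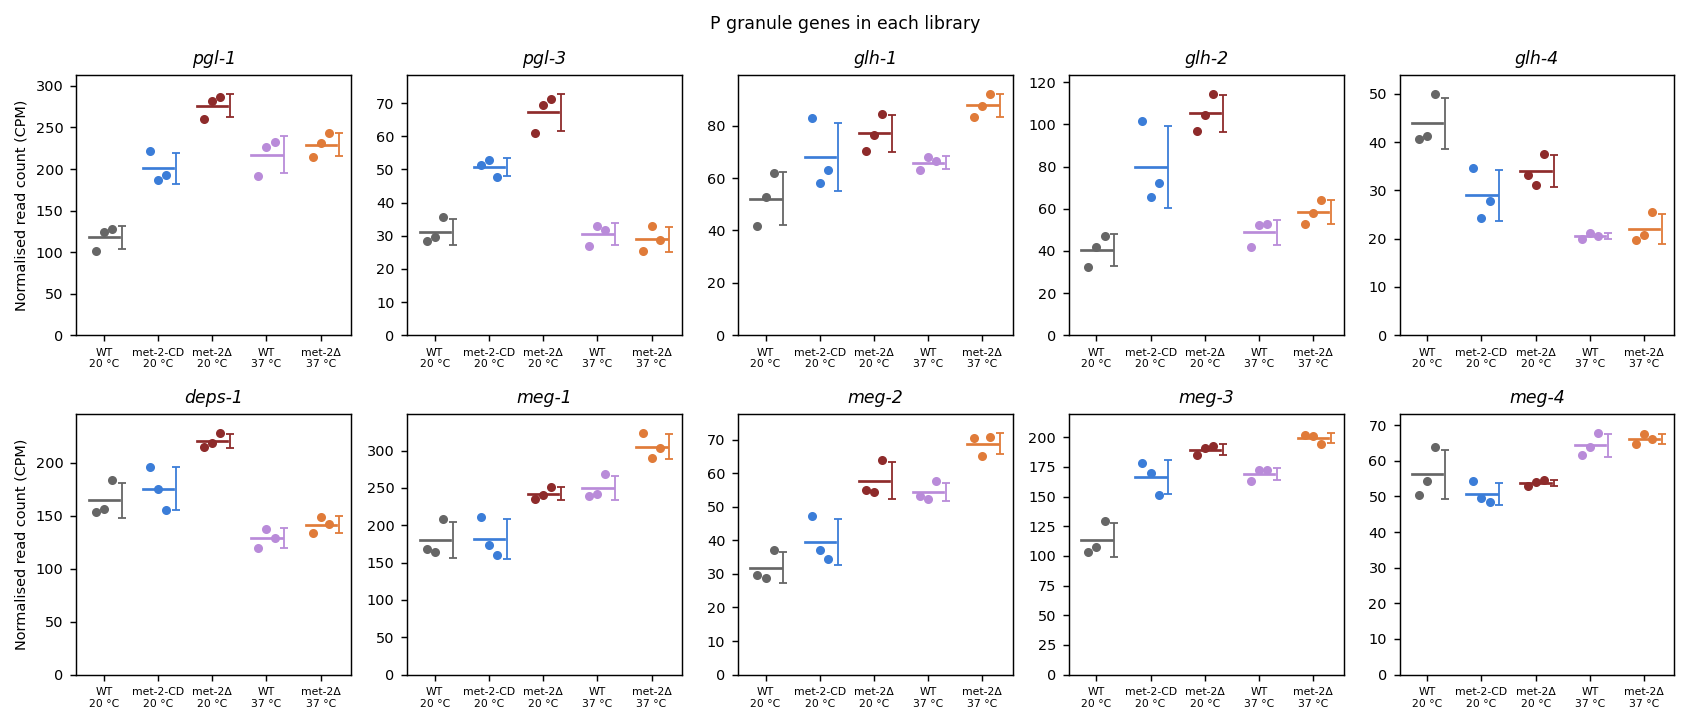
Normalised read count (CPM, axis from 0) of each P granule gene in each of the 15 libraries, with 1 panel a gene. Points are libraries a, b and c from left to right, horizontal lines are group means and bars beside them the SD. The 3 met-2Δ libraries at 20 °C lie above all WT libraries at 20 °C for 8 genes, and below them for glh-4. How often libraries separate in this way was not counted over all genes, so the count is a description.

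The founding member of the PGL family, pgl-1 (WBGene00003992), lies on chromosome IV at 6974441 to 6977318, minus strand, in the WBcel235 assembly, from which all positions here are taken. Its level in WT at 20 °C was 102, 124 and 128 CPM in libraries a, b and c, against 222, 187 and 193 CPM for met-2-CD and 260.2, 282 and 287 CPM for met-2Δ. After HS it was 192, 227 and 233 CPM in WT and 214, 231 and 243 CPM in met-2Δ. The 3 groups at 20 °C were fully separated from each other, whereas the heated groups overlapped. Its paralogue pgl-3 (WBGene00003994, chromosome V, 4755979 to 4758587, plus strand) was lower in every library, at 28.4, 29.6 and 35.7 CPM in WT and, in the mutants, 51.4, 53.0 and 47.7 CPM (met-2-CD) and 60.9, 69.4 and 71.3 CPM (met-2Δ) at 20 °C. At 37 °C pgl-3 stood at 26.8, 32.8 and 31.9 CPM in WT and 25.3, 32.8 and 28.8 CPM in met-2Δ. As for pgl-1, the groups at 20 °C did not overlap and the heated ones did, but for pgl-3 the heated libraries were at the level of unheated WT.

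Among the helicase genes, glh-1 (WBGene00001598, chromosome I, 6854478 to 6857536, plus strand) encodes the Vasa-like protein with the strongest known role in P granules. Its libraries held 41.6, 52.9 and 61.9 CPM in WT and, in the mutants, 82.8, 58.1 and 63.2 CPM (met-2-CD) and 70.3, 76.6 and 84.4 CPM (met-2Δ) at 20 °C, and 63.1, 67.9 and 66.6 CPM in WT and 83.4, 87.6 and 92.2 CPM in met-2Δ at 37 °C. Here met-2-CD overlapped both other groups at 20 °C, while WT and met-2Δ were apart at both temperatures. The close relative glh-2 (WBGene00001599, chromosome I, 6513928 to 6517507, plus strand) was at 32.2, 42.0 and 46.9 CPM in WT and, in the mutants, 102, 65.4 and 72.0 CPM (met-2-CD) and 96.8, 104 and 114 CPM (met-2Δ) at 20 °C. HS libraries had 42.0, 52.1 and 52.5 CPM of glh-2 in WT and 52.7, 58.1 and 64.2 CPM in met-2Δ. Both mutants at 20 °C exceeded every WT library and overlapped each other, and library a of met-2-CD was well above the other 2 of its group. The more distant glh-4 (WBGene00001601, chromosome I, 3727027 to 3731179, plus strand) was at 40.6, 41.2 and 50 CPM in WT and, in the mutants, 34.7, 24.3 and 27.8 CPM (met-2-CD) and 33.1, 31.1 and 37.6 CPM (met-2Δ) at 20 °C, and at 20.0, 21.1 and 20.5 CPM in WT and 19.8, 20.8 and 25.5 CPM in met-2Δ at 37 °C. It was the only one of the 10 with all mutant libraries below all WT libraries at 20 °C.

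The assembly factor deps-1 (WBGene00022034, chromosome I, 506473 to 509056, plus strand) was at 154, 156 and 183 CPM in WT and, in the mutants, 196, 176 and 155 CPM (met-2-CD) and 215, 219 and 228 CPM (met-2Δ) at 20 °C. Heated embryos had 119, 138 and 129 CPM in WT and 133, 149 and 142.02 CPM in met-2Δ. Every heated library was below every unheated one, and at 20 °C met-2Δ was above WT and met-2-CD, which overlapped.

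All 4 MEG genes lie on chromosome X. meg-1 (WBGene00010492, 13927036 to 13929634, minus strand) and meg-2 (WBGene00010493, 13922643 to 13926129, minus strand) are neighbours, 906 bases apart. Libraries of meg-1 held 168, 164 and 208 CPM in WT and, in the mutants, 212, 174 and 159.8 CPM (met-2-CD) and 234.98, 240.3 and 251 CPM (met-2Δ) at 20 °C, and 239.5, 242 and 269 CPM in WT and 323, 289.8 and 303 CPM in met-2Δ at 37 °C. Its levels in WT and met-2-CD overlapped, met-2Δ was above both, and heated met-2Δ had the highest levels of meg-1 of all groups. meg-2 was at 29.6, 28.9 and 37.1 CPM in WT and, in the mutants, 47.3, 37.0 and 34.3 CPM (met-2-CD) and 55.0, 54.3 and 64.1 CPM (met-2Δ) at 20 °C, and at 53.4, 52.3 and 57.6 CPM in WT and 70.4, 65.2 and 70.9 CPM in met-2Δ at 37 °C. As for its neighbour, WT and met-2-CD overlapped at 20 °C and heated met-2Δ was above every other group. The granule shell gene meg-3 (WBGene00001569, 1986469 to 1989607, minus strand) was at 103, 107 and 129.6 CPM in WT and, in the mutants, 179, 169.8 and 151 CPM (met-2-CD) and 185, 191 and 193 CPM (met-2Δ) at 20 °C, and at 163, 172 and 172 CPM in WT and 202, 201 and 194 CPM in met-2Δ at 37 °C. WT at 20 °C was below all other groups. Its paralogue meg-4 (WBGene00016485, 1682954 to 1686419, plus strand) was at 50.4, 54.2 and 63.9 CPM in WT and, in the mutants, 54.3, 49.5 and 48.3 CPM (met-2-CD) and 52.9, 53.9 and 54.7 CPM (met-2Δ) at 20 °C, and at 61.5, 63.8 and 67.8 CPM in WT and 64.7, 67.4 and 66.1 CPM in met-2Δ at 37 °C. The 3 groups at 20 °C overlapped for meg-4, and the 15 libraries stayed between 48.3 and 67.8 CPM.

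Loss of MET-2 at 20 °C went with higher transcript levels of most P granule genes. With edgeR's quasi-likelihood test, 8 of the 10 were higher in met-2Δ than in WT at a false discovery rate (FDR) below 0.01, against 28.2% of all genes tested, and 0 were lower, against 27.5%. At an unadjusted p below 0.05 1 gene was lower (glh-4), which was called with the DESeq2 test and with DESeq2 size factors, for 8 higher and 1 lower in each. The median log2 fold change (log2FC) of the 10 was 0.65, beside 0.07 over all genes tested. Both PGL genes and glh-2 more than doubled. In a bulk sample of embryos, more cells of a type and more RNA per cell cannot be told apart.

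By role, both PGL genes rose, pgl-1 2.35-fold (log2FC 1.23 ± 0.097, FDR 2.94e-08, here and below the SE) and pgl-3 2.15-fold (log2FC 1.11 ± 0.11, FDR 3.93e-07). Of the helicases, glh-2 rose 2.61-fold (log2FC 1.38 ± 0.16, FDR 1.87e-06), the steepest rise among the 10, and glh-1 rose 1.48-fold (log2FC 0.57 ± 0.13, FDR 0.00165). The level of glh-4 was lower in met-2Δ without passing the test (log2FC −0.37 ± 0.13, FDR 0.0185). deps-1 rose 1.34-fold (log2FC 0.42 ± 0.088, FDR 0.000528). Of the MEG genes, meg-2 (log2FC 0.86 ± 0.12, FDR 1.08e-05), meg-3 (log2FC 0.74 ± 0.08, FDR 8.24e-07) and meg-1 (log2FC 0.43 ± 0.1, FDR 0.00176) rose, and meg-4 did not pass (log2FC −0.06 ± 0.078, FDR 0.507). With the study's further limit of a fold change above 2, pgl-1, pgl-3 and glh-2 remained, 3 of 10 against 19.2% of all genes higher by that rule. Without WT library a, the lowest of its group for 8 of the 10 genes, 5 genes were higher, since deps-1 (FDR 0.0104), glh-1 (FDR 0.0163) and meg-1 (FDR 0.0232) no longer passed, and glh-4 was lower (FDR 0.0087). meg-1 also did not pass without WT library b (FDR 0.0247) or met-2Δ library b (FDR 0.0113).

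In the catalytic site mutant the PGL genes, glh-2 and meg-3 were higher and glh-4 was lower. In met-2-CD 4 of the 10 were higher than in WT, against 26.5% of all genes, and 1 was lower, against 24.9%. The median log2FC was 0.35, beside 0.04 over all genes. Those that rose were pgl-1 (log2FC 0.77 ± 0.096, FDR 5.14e-06), pgl-3 (log2FC 0.70 ± 0.11, FDR 4.70e-05), glh-2 (log2FC 0.98 ± 0.16, FDR 6.19e-05) and meg-3 (log2FC 0.56 ± 0.08, FDR 1.92e-05), and glh-4 fell (log2FC −0.60 ± 0.13, FDR 0.000739). meg-1 (log2FC 0.01 ± 0.1, FDR 0.937) and deps-1 (log2FC 0.09 ± 0.087, FDR 0.363) did not pass, with group means near those of WT. glh-1 (log2FC 0.38 ± 0.13, FDR 0.0203) and meg-2 (log2FC 0.31 ± 0.12, FDR 0.0296) were higher without passing the test, and meg-4 gave log2FC −0.15 ± 0.078, FDR 0.111. None of the 10 passed the fold limit of 2 in either direction, against 23.8% of all genes, and the change of glh-2 came closest, at 1.97-fold. With counts divided by library totals, which moved the median log2FC of all genes by 0.13, glh-1 (log2FC 0.51, FDR 0.00174) and meg-2 (log2FC 0.44, FDR 0.00165) passed too, for 6 higher and 1 lower. That scaling called 8024 of 15471 genes in either direction. The 5 calls held without any 1 library, and glh-1 passed without WT library c (FDR 0.00407), as did meg-2 without it (FDR 0.00752) or without met-2-CD library c (FDR 0.00969).

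The mutants share the WT libraries as their control, so the difference between them was tested directly. Levels in met-2Δ were above those in met-2-CD for 5 of the 10, against 9.58% of all genes, and none was below them, so that 5 were called in either direction, against 20.5%. No gene was below at an unadjusted p below 0.05 either, nor by DESeq2. All 10 log2FC were above 0, from 0.09 (meg-4) to 0.55 (meg-2), with a median of 0.37 beside 0.01 over all genes. The genes that passed were meg-2 (log2FC 0.55 ± 0.12, FDR 0.0025), pgl-1 (log2FC 0.46 ± 0.096, FDR 0.00214), meg-1 (log2FC 0.42 ± 0.1, FDR 0.00597), pgl-3 (log2FC 0.41 ± 0.11, FDR 0.00995) and deps-1 (log2FC 0.33 ± 0.088, FDR 0.00919). For glh-2 (log2FC 0.40 ± 0.16, FDR 0.0581), glh-4 (log2FC 0.23 ± 0.13, FDR 0.184), meg-3 (log2FC 0.19 ± 0.079, FDR 0.0771) and glh-1 (log2FC 0.18 ± 0.13, FDR 0.314) the difference did not pass. None passed the fold limit of 2, against 5.85% of all genes. These 5 calls depended on single libraries. pgl-3 did not pass without any 1 of the 6 libraries compared (FDR between 0.015 and 0.0511). None of the 5 was left without met-2-CD library b or met-2Δ library c, 1 was left without met-2-CD library c or met-2Δ library b, and 2 without met-2Δ library a. Without met-2-CD library a, glh-2 passed (log2FC 0.59, FDR 0.00391).

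**Figure D2:**
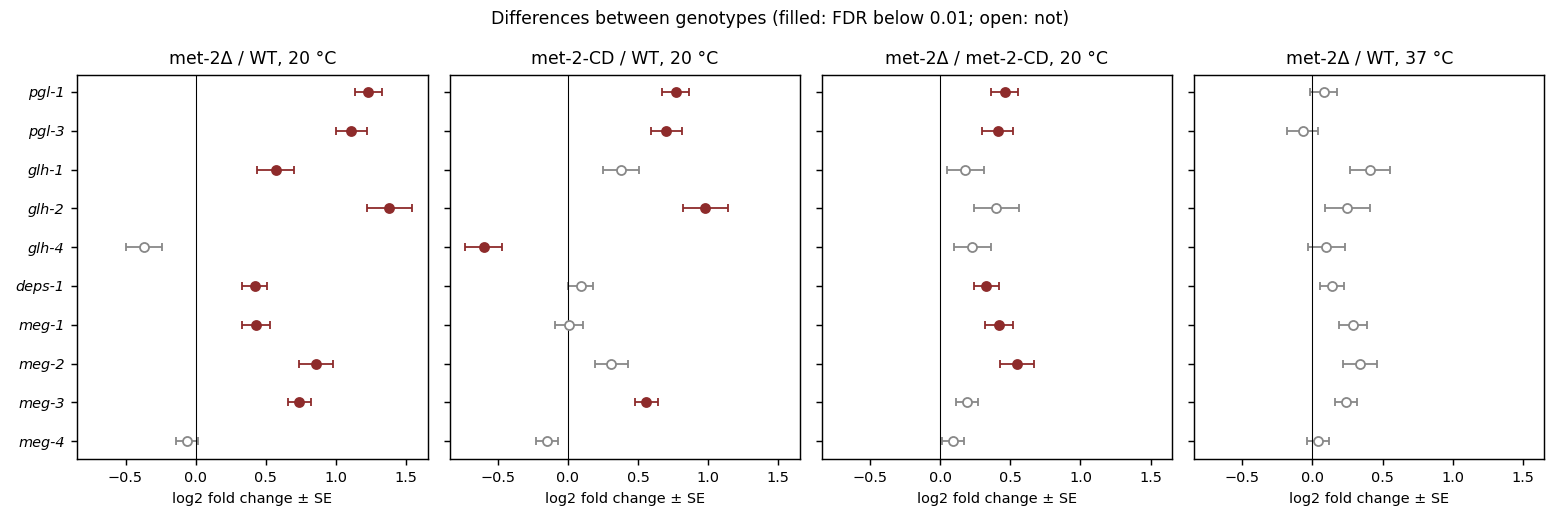
log2 fold change (points) with its SE (bars) of each P granule gene between genotypes, in 4 comparisons. Filled points passed FDR below 0.01: 8 of 10 for met-2Δ against WT at 20 °C, 5 for met-2-CD against WT, 5 for met-2Δ against met-2-CD, and 0 for met-2Δ against WT at 37 °C.

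Some marker lists of other stages shifted at 20 °C too, while the later embryo and maternal lists were split in met-2Δ against WT. Beside the counts below, shares over all genes against WT were 28.2% up and 27.5% down for met-2Δ. For met-2-CD against WT they were 26.5% and 24.9%. The direct test of the mutants called 9.58% of all genes higher in met-2Δ and 20.5% in either direction. Of 8 genes of the adult germ line and oocyte, 5 were higher and 1 was lower in unheated met-2Δ than in unheated WT, and 6 were higher than in met-2-CD. Their sum was between 477 and 579 CPM in WT, between 561 and 681 CPM for met-2-CD and between 802 and 860.5 CPM for met-2Δ at 20 °C. Of 9 early zygotic genes, 7 were lower and 1 was higher in met-2Δ than in WT, and 8 were lower in met-2-CD, with sums between 935 and 1117 CPM in WT, 652 and 754 CPM for met-2-CD and 711 and 739 CPM for met-2Δ. Of 10 genes of later embryos, met-2Δ had 2 above and 6 below WT, met-2-CD had 4 above and 6 below WT, and the direct test of the mutants put 0 above and 7 below in met-2Δ. Sums of the later embryo list were between 1255 and 1623 CPM in WT, 1805 and 2253 CPM for met-2-CD and 1282 and 1665 CPM for met-2Δ. The sums of WT and met-2Δ thus overlapped. In the maternal list 1 of 10 was higher and 1 lower in met-2Δ, and 5 were lower in met-2-CD. The direct test of the mutants put 2 of these 10 higher and 0 lower in met-2Δ. The median log2FC of the maternal list in that test was 0.38, beside 0.37 for the P granule genes and 0.01 over all genes. None of the germ line, early zygotic, later embryo or maternal markers was at 0 in any group. The part of stage or of adult germ line tissue in the differences of the P granule genes was not tested.

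HS changed P granule genes in both directions in WT. After 1 h at 37 °C 4 of the 10 were higher, against 44.0% of all genes, and 2 were lower, against 35.6%, so calls were no more frequent among them than among all genes. pgl-1 rose 1.85-fold (log2FC 0.88 ± 0.097, FDR 3.91e-07), and meg-2 (log2FC 0.77 ± 0.12, FDR 1.47e-05), meg-3 (log2FC 0.58 ± 0.08, FDR 5.12e-06) and meg-1 (log2FC 0.47 ± 0.1, FDR 0.00048) rose less. glh-4 fell 2.14-fold (log2FC −1.10 ± 0.13, FDR 1.09e-06) and deps-1 fell 1.28-fold (log2FC −0.35 ± 0.088, FDR 0.00147). pgl-3 (log2FC −0.03 ± 0.11, FDR 0.796), glh-1 (log2FC 0.34 ± 0.13, FDR 0.0284), glh-2 (log2FC 0.28 ± 0.16, FDR 0.115) and meg-4 (log2FC 0.20 ± 0.078, FDR 0.0283) did not pass. None reached the study's fold limit of 4 between temperatures, against 32.2% of all genes.

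The WT response depended on scaling and on its baseline. With counts divided by library totals, which moved the median log2FC of all genes by 0.23, 7 genes were higher and 1 lower, and deps-1 no longer passed (log2FC −0.12, FDR 0.157). Of all 15471 genes, 12167 were called in either direction with that scaling. meg-1 did not pass without WT library a (FDR 0.0125) or b (FDR 0.0133) of the 20 °C group, nor deps-1 without heated WT library a (FDR 0.0103), and glh-1 passed without WT library c at 20 °C (FDR 0.00951). Set against met-2-CD at 20 °C in place of WT at 20 °C, which changes the genotype of the baseline too, heated WT had 3 of the 10 higher and 4 lower: pgl-1 (log2FC 0.11, FDR 0.289) and meg-3 (log2FC 0.02, FDR 0.798) were no longer higher, meg-4 was (log2FC 0.34, FDR 0.000932), and pgl-3 (log2FC −0.73, FDR 2.29e-05) and glh-2 (log2FC −0.70, FDR 0.000870) were lower. With this baseline 10200 of 15471 genes were called in either direction.

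In met-2Δ more of these genes were lower than higher after HS. 4 of the 10 were lower at 37 °C, against 21.2% of all genes, and 1 was higher, against 17.3%. pgl-3 fell 2.32-fold (log2FC −1.21 ± 0.11, FDR 5.12e-07), the steepest heat response among the 10, followed by glh-2 (log2FC −0.85 ± 0.16, FDR 0.000421), deps-1 (log2FC −0.64 ± 0.088, FDR 2.58e-05) and glh-4 (log2FC −0.62 ± 0.13, FDR 0.0012). The gene that rose was meg-4 (log2FC 0.30 ± 0.079, FDR 0.00573), a call that was lost without any one of the 6 libraries compared (FDR between 0.0133 and 0.0224). pgl-1 (log2FC −0.27 ± 0.096, FDR 0.029) and meg-1 (log2FC 0.33 ± 0.1, FDR 0.0127) missed the limit, as did meg-2 (log2FC 0.25 ± 0.12, FDR 0.0826), glh-1 (log2FC 0.19 ± 0.13, FDR 0.257) and meg-3 (log2FC 0.07 ± 0.08, FDR 0.473). Scaled by library totals, meg-1 was higher too (FDR 0.00521), for 2 higher and 4 lower. So scaled, 5813 of 15471 genes were called in either direction. No gene reached the fold limit of 4, against 6.83% of all genes. Calls in met-2Δ do not involve the WT libraries at 20 °C, and all 4 falls held in a fit without them.

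The heat responses of both genotypes were compared by an interaction term, the met-2Δ response less the WT response. It was called for 4 of the 10, against 50.1% of all genes in either direction. All 4 terms were negative, and it was higher for 0, against 23.1%. At an unadjusted p below 0.05 1 gene was higher (glh-4, log2FC 0.47, FDR 0.0373), and DESeq2 called 0. pgl-3 (log2FC −1.18 ± 0.16, FDR 1.35e-05), pgl-1 (log2FC −1.15 ± 0.14, FDR 4.01e-06) and glh-2 (log2FC −1.13 ± 0.23, FDR 0.000491) differed by more than 2-fold between the responses, and meg-3 by less (log2FC −0.51 ± 0.11, FDR 0.00111). pgl-1 and meg-3 rose in WT and did not pass in met-2Δ, while pgl-3 and glh-2 fell in met-2Δ and did not pass in WT. meg-2 (log2FC −0.52 ± 0.17, FDR 0.0126) and deps-1 (log2FC −0.29 ± 0.12, FDR 0.0563) missed the limit, and glh-1, meg-1 and meg-4 had terms between −0.15 and 0.10. The call of meg-3 was lost without WT library a (FDR 0.0154) or b (FDR 0.0139) or met-2Δ library b (FDR 0.0115) of the 20 °C groups, and meg-2 passed without WT library c (FDR 0.00583). Scaled by library totals, which moved the median term of all genes by −0.21, deps-1 (log2FC −0.50, FDR 0.00122) and meg-2 (log2FC −0.74, FDR 0.000496) passed too, for 6 negative terms. So scaled, 7569 of 15471 genes had a term that was called in either direction. With met-2-CD in place of WT at 20 °C, a change of genotype in that baseline, none of the 10 passed: pgl-1 gave −0.38 (FDR 0.0478), pgl-3 −0.48 (FDR 0.0344), glh-2 −0.15 (FDR 0.655) and meg-3 0.05 (FDR 0.783). Calls fell over all genes too, to 2187 of 15471 in either direction from 7749 with WT as the baseline.

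**Figure D3:**
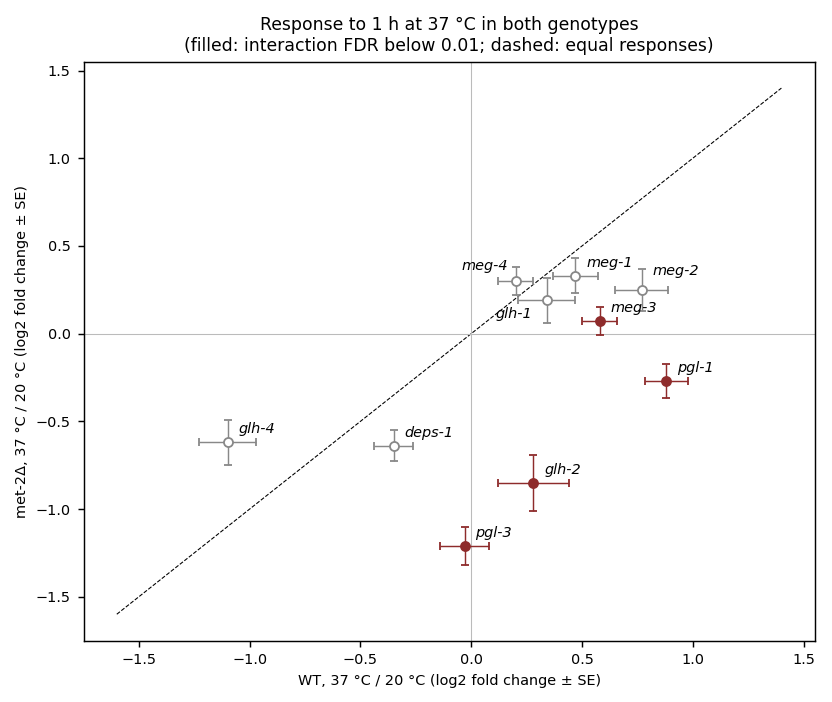
Response to 1 h at 37 °C in WT (horizontal, log2 fold change) and met-2Δ (vertical, log2 fold change) for each P granule gene, with the SE of both as bars. On the dashed line both responses are equal. Filled points (pgl-1, pgl-3, glh-2 and meg-3) passed the interaction test at FDR below 0.01 and lie below the line.

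After HS no P granule gene passed the edgeR test between genotypes. 0 of the 10 genes were higher in met-2Δ than in WT at 37 °C and 0 were lower, against 6.59% and 10.5% of all genes, and DESeq2 likewise called 0. None passed the fold limit of 2 either, against 7.23%. At an unadjusted p below 0.05, and at FDR below 0.05, 4 were higher, namely glh-1 (log2FC 0.41 ± 0.14, FDR 0.0283), meg-2 (log2FC 0.34 ± 0.12, FDR 0.0362), meg-1 (log2FC 0.29 ± 0.1, FDR 0.0393) and meg-3 (log2FC 0.24 ± 0.08, FDR 0.0332), and for each of them the met-2Δ libraries were all above the WT libraries. Fitted with only the 6 heated libraries, these 4 passed FDR below 0.01, with FDR from 8.10e-05 (glh-1) to 0.00107 (meg-1). In that fit 5088 of 14791 genes were called in either direction. The shares of all genes at the looser limits are not given here. For pgl-1 (log2FC 0.08 ± 0.096, FDR 0.539), pgl-3 (log2FC −0.07 ± 0.11, FDR 0.627), glh-4 (log2FC 0.10 ± 0.13, FDR 0.575), deps-1 (log2FC 0.14 ± 0.088, FDR 0.232) and meg-4 (log2FC 0.04 ± 0.079, FDR 0.726) the heated groups overlapped. glh-2 did not pass (log2FC 0.25 ± 0.16, FDR 0.223), though its heated groups did not overlap either. Its lowest heated met-2Δ library was at 52.7 CPM and its highest heated WT library at 52.5 CPM. The median log2FC was 0.19, beside −0.13 over all genes. Markers of stage and tissue differed with heat as well. Over all genes 44.0% were higher and 35.6% lower in heated WT, and 17.3% and 21.2% in heated met-2Δ. Of the 9 early zygotic genes 8 were lower in heated than in unheated WT and 7 in heated met-2Δ, with sums between 252 and 272 CPM in heated WT and between 259 and 293 CPM in heated met-2Δ. Of the 8 genes of the adult germ line and oocyte 1 was higher and 4 lower in heated WT, with sums between 419.9 and 481 CPM, and 0 were higher and 4 lower in heated met-2Δ, with sums between 507 and 562 CPM. Of the later embryo list, 4 of 10 were higher and 6 lower in heated WT than in unheated WT, and 4 were higher and 4 lower in heated met-2Δ. Sums of the 4 yolk genes were 0.501 to 1.75 CPM in unheated and 7.04 to 14.4 CPM in heated WT. In met-2Δ they were 0.496 to 0.653 CPM unheated and 2.63 to 2.94 CPM heated. Sums of the 8 sperm genes were 0.444 to 0.715 CPM in unheated and 7.53 to 9.99 CPM in heated WT. For met-2Δ these were 2.79 to 2.95 CPM unheated and 4.44 to 5.89 CPM heated. The part of stage, of adult germ line tissue or of other adult tissue in the heat responses was not tested.

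Ratios between related genes within a library do not depend on the scaling between libraries. They were taken from CPM per kb and are given as a description, with no test. The ratio of glh-1 to glh-2 was 1.50 ± 0.037 for WT, 1.00 ± 0.046 for met-2-CD and 0.852 ± 0.0067 for met-2Δ at 20 °C, and 1.58 ± 0.15 in WT and 1.75 ± 0.086 in met-2Δ at 37 °C. Per kb, glh-2 was thus above glh-1 in each of the 3 unheated met-2Δ libraries. The ratio of pgl-1 to pgl-3 was 3.47 ± 0.33, 3.64 ± 0.36 and 3.78 ± 0.12 in WT, met-2-CD and met-2Δ at 20 °C, and 6.54 ± 0.18 and 7.33 ± 0.76 in WT and met-2Δ at 37 °C. Libraries of different temperature did not overlap in this ratio, and those of different genotype at 20 °C did. The ratio of glh-1 to glh-4 was 1.60 ± 0.19 in WT, 3.18 ± 0.087 in met-2-CD, 3.08 ± 0.24 in met-2Δ, 4.34 ± 0.063 in heated WT and 5.43 ± 0.47 in heated met-2Δ. The neighbours meg-1 and meg-2 stood at 6.97 ± 0.047 in WT at 20 °C and at between 5.17 and 5.67 in the group means of the other 4 groups. The ratio of meg-3 to meg-4 was 1.97 ± 0.033 in WT, 3.21 ± 0.15 in met-2-CD, 3.44 ± 0.026 in met-2Δ, 2.57 ± 0.078 in heated WT and 2.95 ± 0.093 in heated met-2Δ. For glh-1 to glh-4, meg-1 to meg-2 and meg-3 to meg-4, WT at 20 °C lay outside the libraries of every other group. Members of these families resemble each other in sequence, and reads that fit several copies were not counted, so their ratios depend on how much of each gene is unique.

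**Figure D4:**
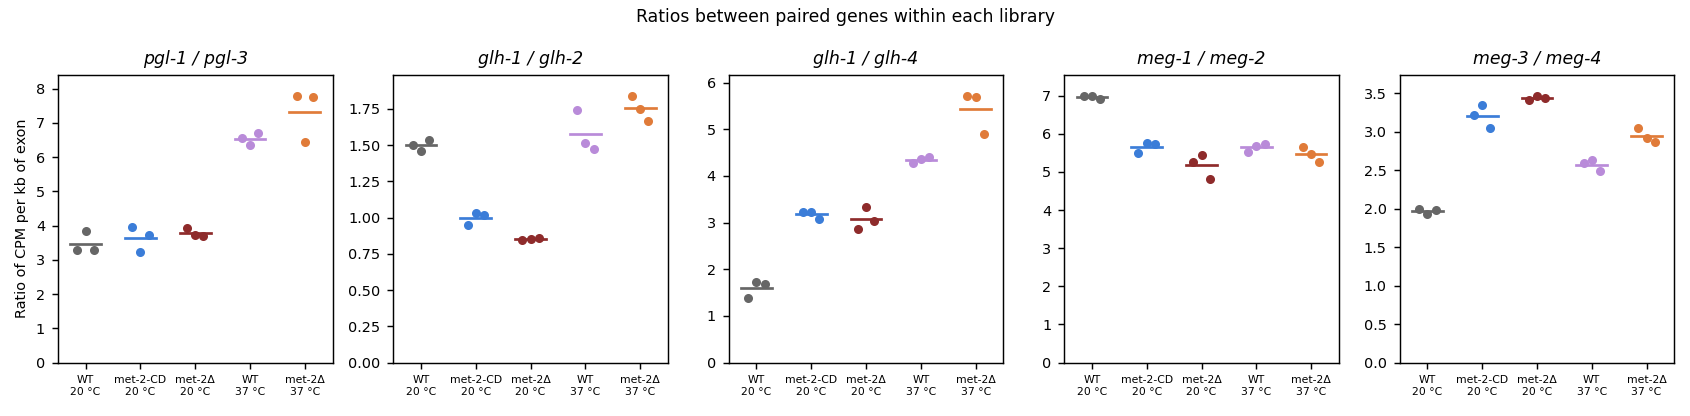
Ratio of the transcript levels (CPM per kb of exon, axis from 0) of related P granule genes within each of the 15 libraries. Points are libraries and lines group means. The ratio of glh-1 to glh-2 is below 1 only in met-2Δ and 1 of the met-2-CD libraries at 20 °C, and that of pgl-1 to pgl-3 is above 6 in all heated libraries.

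How alike the 10 genes moved is described by Pearson's r of log2 CPM over the 15 libraries, which share groups, genotypes and temperatures. The highest values were 0.96 between the neighbours meg-1 and meg-2, 0.93 between pgl-1 and meg-3, 0.89 between pgl-3 and deps-1 and 0.89 between glh-1 and meg-3. The lowest were −0.60 between glh-4 and meg-3 and −0.58 between pgl-3 and meg-4. Among all genes tested, the 3 most like the mean profile of the 10 were alg-5 (r = 0.96), which encodes an Argonaute protein, mrp-7 (r = 0.957), which encodes an ABC transporter, and T13F2.6 (r = 0.939). alg-5 was at 132 ± 15.6 CPM in WT and in the mutants at 159.8 ± 16.8 CPM (met-2-CD) and 197 ± 8.86 CPM (met-2Δ) at 20 °C, and at 146 ± 5.84 CPM in WT and 166 ± 3.16 CPM in met-2Δ at 37 °C.

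Counts differed between the lists of other germ granule genes. Both remaining relatives were higher in met-2Δ: pgl-2 (log2FC 0.84 ± 0.087, FDR 5.81e-07) and glh-3 (log2FC 0.27 ± 0.083, FDR 0.00941) rose in met-2Δ, and pgl-2 rose in met-2-CD (log2FC 0.42, FDR 0.000589) and in heated WT (log2FC 1.03, FDR 1.90e-08). Among 14 genes of RNA-binding proteins that reside in P granules, 3 rose and 4 fell in met-2Δ relative to WT, near the shares over all genes of 28.2% higher and 27.5% lower, and 0 rose and 10 fell in met-2-CD, against 26.5% and 24.9%. The list medians were −0.21 and −0.62, beside 0.07 and 0.04 over all genes. Between met-2Δ and met-2-CD 4 of the 14 were higher and 0 lower, with a median of 0.39. The share higher over all genes was 9.58%, with a median of 0.01. Those furthest from WT in met-2Δ were car-1 (log2FC −0.92 ± 0.25, FDR 0.00455) and cgh-1 (log2FC −0.89 ± 0.23, FDR 0.00321), RNA-binding proteins of repressed maternal mRNA, and nos-1 (log2FC −0.79 ± 0.084, FDR 7.56e-07), a Nanos relative. In met-2-CD, cgh-1 (log2FC −1.30, FDR 0.000169), car-1 (log2FC −1.13, FDR 0.00104) and nos-2 (log2FC −1.01, FDR 7.77e-07) fell the most. Of 6 regulators of granule segregation, 0 were higher and 1 was lower in either mutant, mex-6, a CCCH zinc finger protein that acts in embryonic polarity (log2FC −0.44, FDR 0.00158 for met-2Δ and log2FC −0.88, FDR 3.33e-06 for met-2-CD).

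Most genes of PGL removal were lower in the mutants at 20 °C. Of 11 autophagy genes of this route, 0 rose and 9 fell in met-2Δ relative to WT, with a list median of −0.42, and 0 rose and 8 fell in met-2-CD, with a median of −0.45. Over all genes 27.5% and 24.9% were lower. epg-5 (log2FC −0.12, FDR 0.282) and lgg-2 (log2FC −0.12, FDR 0.18) did not pass in met-2Δ, and neither these nor epg-2 (log2FC −0.19, FDR 0.0473) passed in met-2-CD. The greatest falls in met-2Δ were those of lgg-1, the worm Atg8 homologue (log2FC −1.27 ± 0.073, FDR 9.10e-10), bec-1, the Beclin homologue (log2FC −1.22 ± 0.084, FDR 6.36e-09), and epg-2, the adaptor of PGL granules (log2FC −0.56 ± 0.079, FDR 1.47e-05). Between met-2Δ and met-2-CD 0 of the 11 were higher and 2 were lower, bec-1 (log2FC −0.45, FDR 0.00106) and epg-2 (log2FC −0.37, FDR 0.00246). This was near the share over all genes, 20.5% in either direction. After HS 10 of the 11 were lower in WT, against 35.6% of all genes, among them sepa-1, the receptor for PGL (log2FC −1.71 ± 0.075, FDR 1.51e-11), lgg-1 (log2FC −1.73, FDR 1.11e-11) and epg-2 (log2FC −1.55, FDR 8.15e-11), and 6 of the 11 were lower in met-2Δ, against 21.2%, where sepa-1 also fell (log2FC −1.22 ± 0.074, FDR 5.79e-09). In heated WT pgl-1 was higher, while pgl-3 did not pass. The interaction was higher for 9 of the 11, against 23.1% of all genes, led by lgg-1 (log2FC 1.31, FDR 6.97e-08). At 37 °C 1 of the 11, epg-5, was higher in met-2Δ than in WT (log2FC 0.46, FDR 0.00248), near the 6.59% of all genes.

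Factors of the small RNA pathways that gather at germ granules were split. In met-2Δ 5 of 11 rose and 2 fell relative to WT, 3 rose and 4 fell in met-2-CD, and the direct test of the mutants put 6 higher and 0 lower in met-2Δ, against 9.58% of all genes higher. In the comparisons with WT, the shares over all genes were 28.2% up and 27.5% down for met-2Δ, and 26.5% and 24.9% for met-2-CD. The list medians were 0.26 and 0.12 in the mutants relative to WT. The Argonaute genes wago-1 (log2FC 0.95 ± 0.092, FDR 2.53e-07), prg-1 (log2FC 0.69 ± 0.078, FDR 1.51e-06) and hrde-1 (log2FC 0.66 ± 0.11, FDR 5.06e-05) rose most in met-2Δ. wago-1 also rose in met-2-CD (log2FC 0.58, FDR 4.93e-05), while mut-16, which scaffolds Mutator foci, fell there (log2FC −0.71, FDR 6.39e-06), as did henn-1, a small RNA methyltransferase (log2FC −0.53, FDR 6.45e-06). In heated WT 1 was higher and 5 lower, led by mut-16 (log2FC −0.78, FDR 8.56e-07), and in heated met-2Δ 0 were higher and 3 lower. Lower calls over all genes came to 35.6% and 21.2%, near the shares of this list. Higher calls over all genes came to 44.0% and 17.3%, above the shares of this list. At 37 °C 5 of the 11 were higher in met-2Δ than in WT and 0 lower, against 6.59% and 10.5% of all genes, among them hrde-1 (log2FC 0.62, FDR 0.000711), znfx-1, a helicase of the neighbouring Z granules (log2FC 0.50, FDR 0.00192), and prg-1 (log2FC 0.46, FDR 0.000735).

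**Figure D5:**
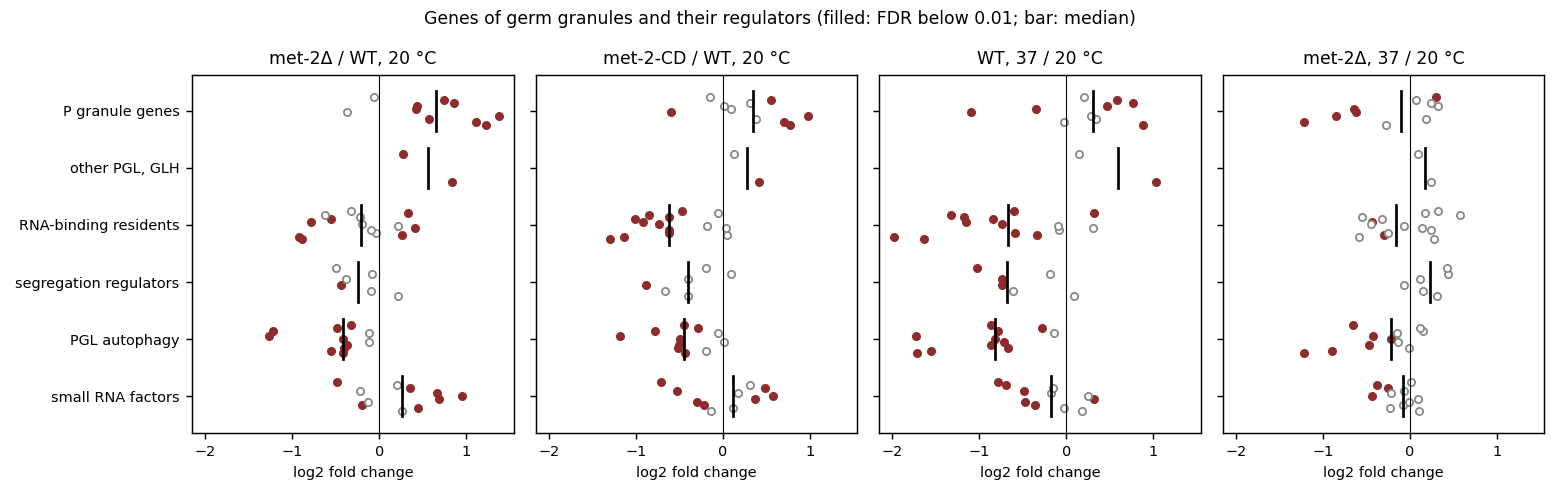
log2 fold change of the 10 P granule genes and of the genes of 5 related lists in 4 comparisons, with 1 point a gene. Filled points passed FDR below 0.01 and black bars are medians. In met-2Δ against WT the median of the P granule genes is 0.65 and that of the PGL autophagy genes is −0.42.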

How the data were processed

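The authors trimmed adapters with Trimmomatic 0.39 and used hisat2 within QuasR 1.22.0 to align reads to ce10, keeping unique alignments. The deposited table holds whole read counts, made by the authors with qCount over WormBase WS220 exons on the strand of the gene, neither scaled nor pooled. Columns name the group and a letter, not the replicate number of the labels. Symbols and positions were looked up by WormBase identifier in the WBcel235 annotation, with no conversion between assemblies.

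Counts were filtered with filterByExpr, scaled by TMM and fitted in 1 model of 5 group means over 15 libraries with edgeR 4.0.16 (R 4.3.3, limma 3.58.1). P-values of the quasi-likelihood F test were adjusted by Benjamini-Hochberg over 15471 genes. A gene was called at FDR below 0.01, and the study's fold limits, 2 between genotypes and 4 between temperatures, were applied in addition. SE values were derived from the F statistic. The biological coefficient of variation was 11.8%. Depth was 16.15 to 58.84 M counts. The model was tested on simulated data first. Replicate pairs had a chi-square per degree of freedom of 6.63 to 53.6, so no library was a copy of another.

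The 10 genes, the related lists and the marker lists were chosen with earlier results of these data known. Of the related lists, at most 3 genes with the greatest absolute log2FC among those called are named per comparison, and for likeness the 3 genes with the highest r, on log2(CPM + 0.1). DESeq2 1.42.0, other scalings and filters, a fit of only the groups compared, thinned counts and leaving out libraries were alternatives. The comparison with met-2-CD at 20 °C as baseline was added after the data were seen. Of the early zygotic list 9 of 10 symbols were found. 4 of the 14 RNA-binding genes and 2 of the 6 segregation regulators are also in the maternal list.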

Additional observations from a re-analysis of the deposited data

Results flagged for a closer look

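For 4 P granule genes the response to 1 h at 37 °C differed between met-2Δ and WT by the interaction test of edgeR, 4 of 10 against 50.1% of all genes, so the share was below that over all genes. The term, in log2 the met-2Δ response less the WT response, was −1.15 for pgl-1 (FDR 4.01e-06), which rose in WT and missed the limit in met-2Δ. It was −1.18 for pgl-3 (FDR 1.35e-05), which fell in met-2Δ and was near 0 in WT. It was −1.13 for glh-2 (FDR 0.000491), which fell in met-2Δ and did not pass in WT. It was −0.51 for meg-3 (FDR 0.00111), which rose in WT and did not pass in met-2Δ. Each of these terms includes the difference between the genotypes at 20 °C and the libraries of unheated WT. With met-2-CD in place of WT at 20 °C none of the 4 passed (FDR between 0.0344 and 0.783). Over all genes that fit called 2187 of 15471, against 7749 with WT as the baseline. Groups of 3 libraries are too small for the search for outlying samples.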

How the results depend on the processing

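Library totals as scaling gave 6 members higher in met-2-CD against WT, 7 higher and 1 lower in heated WT, 2 higher in heated met-2Δ and 6 lower by the interaction. Of all 15471 genes it called 8024, 12167, 5813 and 7569 in the same order. These and the other counts over all genes here are for either direction. DESeq2 size factors gave 1 lower in met-2Δ against WT at 20 °C and 3 higher against met-2-CD, and the DESeq2 test 1 lower in met-2Δ against WT at 20 °C and 2 higher in heated met-2Δ. The size factors called 8631 and 3123 of 15471 genes in these comparisons, and the DESeq2 test 8728 and 5993. Without a count filter 3 were higher in met-2Δ against met-2-CD and 0 in heated met-2Δ, and with a stricter filter 1 was lower in heated WT and 2 higher in heated met-2Δ. Genes called were 3071 and 5969 of 20065 without a filter and 9569 and 4922 of 12028 with the stricter one. Fits of only the groups compared gave 2 higher against met-2-CD, 3 higher in heated met-2Δ, 4 higher in met-2Δ against WT at 37 °C and 1 higher by the interaction. Those fits called 1687 of 13428, 6946 of 13716, 5088 of 14791 and 8234 of 15341 genes. Thinned counts gave 2 higher in heated met-2Δ, where 5496 of 14360 genes were called. Without the WT libraries at 20 °C 2 were higher in heated met-2Δ and 2 in met-2Δ against WT at 37 °C. There 6019 and 2862 of 15272 genes were called. With met-2-CD as the baseline at 20 °C, chosen after seeing the data, 4 were lower in heated WT and 0 by the interaction, with 10200 and 2187 of 15471 genes called. In that fit the log2FC of glh-2 in heated WT went from 0.28, not called (FDR 0.115), to −0.70 (FDR 0.00087). The interaction term of meg-3 went from −0.51 (FDR 0.00111) to 0.047, not called (FDR 0.783). The cause of these changes was not tested.

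Leaving out 1 library at a time, members higher numbered 5 to 8 in met-2Δ against WT at 20 °C, 4 to 6 in met-2-CD, 0 to 5 in met-2Δ against met-2-CD, 3 to 5 in heated WT, 0 in heated met-2Δ, 0 in met-2Δ against WT at 37 °C and 0 by the interaction. Members lower numbered 0 to 1, 1, 0, 1 to 2, 4, 0 and 3 to 5 in the same order. Over all single genes and comparisons, 434 of the left-out values kept their call or lack of a call, 39 lost the call and 7 gained it. Under the other settings 561 kept theirs, 16 lost the call, 31 gained it and 2 changed sign with a call in either fit. A change of sign between values that were both not called was counted as no change.

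With the column letter as a replicate block, deps-1 in met-2Δ against met-2-CD was lost (log2FC 0.33, FDR 0.0159), and no other call changed. The letters are not the replicate numbers of the labels, and libraries of like letter deviated together with r from −0.613 to 0.272, so they share only a letter. The lowest count of a P granule gene in a library was 381, and thinning to the smallest library changed 2 calls, both gained (glh-1 in met-2-CD, FDR 0.00801, and meg-1 in heated met-2Δ, FDR 0.00592).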

Other observations

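Several genes of related lists, named for the size of their change, differed at 37 °C or in the heat response. Over all genes 35.6% were lower in heated WT, 6.59% were higher in met-2Δ at 37 °C and 23.1% had a higher interaction. The interaction terms include the unheated WT libraries, which stood apart. Unheated met-2Δ libraries also scattered for some of these genes, at 83.3, 61.1 and 127.5 CPM for gld-2. gld-2, which encodes a cytoplasmic poly(A) polymerase, fell in heated WT (log2FC −1.33 ± 0.23, FDR 5.28e-05) and was higher in met-2Δ than in WT at 37 °C (log2FC 1.29 ± 0.23, FDR 0.00103), with an interaction term of 1.91 (FDR 0.000112). cgh-1, a DEAD-box helicase gene, gave a similar term (log2FC 1.91 ± 0.33, FDR 0.00014), as did car-1 (log2FC 1.39 ± 0.36, FDR 0.00329). pptr-1, which encodes a regulatory subunit of the phosphatase PP2A, fell in heated WT (log2FC −1.03 ± 0.2, FDR 0.000144) and was higher in met-2Δ at 37 °C (log2FC 0.96 ± 0.2, FDR 0.00252). mbk-2, a kinase gene of the egg-to-embryo transition, did likewise (log2FC −0.74 ± 0.12, FDR 4.00e-05 in heated WT, log2FC 0.48 ± 0.12, FDR 0.00876 at 37 °C). The interaction term of wago-1 was negative (log2FC −0.68 ± 0.13, FDR 0.00032), as were those of pgl-1 and pgl-3. Of the 11 small RNA factors, wago-1 was the only 1 with a lower interaction, and 4 had a higher one.

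Of the genes most like the mean profile of the P granule genes, mrp-7 was at 99.1 ± 17.0 CPM in WT, 154 ± 31.9 CPM for met-2-CD and 224 ± 21.1 CPM for met-2Δ at 20 °C, and at 143 ± 8.70 CPM in WT and 214 ± 25.1 CPM in met-2Δ at 37 °C. T13F2.6 was at 65.1 ± 5.30 CPM in WT, 81.0 ± 10.7 CPM for met-2-CD and 120.5 ± 6.01 CPM for met-2Δ at 20 °C, and at 81.0 ± 5.42 CPM in WT and 103.5 ± 5.41 CPM in met-2Δ at 37 °C. For these genes, which were picked by their values, the levels are a description.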
